A study of Mus musculus with 30 samples.

Results

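Toll-like receptors (TLRs) are the pattern-recognition receptors of innate immunity, and 10 of their mouse genes are described here across diet and time in the ventral prostate (VP). Tlr1, Tlr2, Tlr4, Tlr5 and Tlr6 encode receptors of the cell surface, and Tlr3, Tlr7, Tlr8, Tlr9 and Tlr13 encode receptors of the endosome. The genes were picked by their symbols and are 10 of the 39179 genes in the count files. Tlr11 and Tlr12, 2 further mouse receptors of the family, serve as a comparison.

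The study asked how the kind of dietary fat bears on the prostate. Male C57BL/6 mice ate, from weaning on, 1 of 3 isocaloric diets that differed in their fat, which was lard (PF, for pork fat), the oil of linseed (LO) or the oil of soybean (SO). VPs were taken after 12 or 32 weeks on the diet, which makes 6 groups (LO, SO and PF at 12 weeks, LO, SO and PF at 32 weeks) of 5 mice each, with 1 library for each of the 30 mice. The labels number the mice of each group from 1 to 5, and name no cage, litter or sequencing run, so time and any date of processing cannot be told apart.

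A TLR binds a microbial molecule, or a molecule set free by damaged tissue, through leucine-rich repeats and signals through an intracellular TIR domain. The adaptors Myd88 or Ticam1, or both, depending on the receptor, pass the signal on to NF-kB and interferon regulatory factors, which switch on cytokine, chemokine and interferon genes. Macrophages, dendritic cells and B cells are rich in these receptors, and some of them are also made by epithelium, as in the prostate.

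Between 27590631 and 41301707 counts fell on genes in each mouse, and 23.7% to 32.2% of what was counted in each library were on no gene, on several genes or at several places. A level is given in CPM, the counts of a gene set to a common library size, with libraries scaled by the trimmed mean of M-values (TMM), and genes are compared with each other only in RPKM, which is CPM per 1000 bases of exon. The label of the tissue was checked against markers. The 8 markers of prostate luminal epithelium summed to 41500 ± 8950 CPM (SD, n = 5) in LO at 32 weeks, the lowest group mean, and to 65800 ± 14600 CPM (SD, n = 5) in PF at 32 weeks, the highest, with Spink1 the most abundant. The 4 seminal vesicle markers Svs2, Svs4, Svs5 and Svs6 summed to at most 0.276 CPM in any mouse, and in PF at 12 weeks all 4 were at 0 in every mouse.

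Mice that bear the number 1 resembled each other across diets. With group means taken out, the log2 levels of the mice numbered 1 were correlated between diets at a mean r of 0.425 at 12 weeks and 0.418 at 32 weeks (3 pairs each). For the other numbers the mean r lay between -0.0847 and 0.0504 at 12 weeks and between -0.139 and 0.151 at 32 weeks. What mice 1 shared, such as a day or a run, is not in the labels. Calls and signs that changed with the mouse number as a block or without mice 1 are given with the comparisons.

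The cell-surface receptors lie on 4 chromosomes of GRCm38. Tlr2, the partner of Tlr1 and of Tlr6 in binding bacterial lipoproteins, is ENSMUSG00000027995 (chr3:83836272-83841767, minus strand). Tlr1, for triacylated lipopeptides, is ENSMUSG00000044827 (chr5:64924679-64933563, minus strand), and next to it lies Tlr6, for diacylated lipopeptides, ENSMUSG00000051498 (chr5:64952031-64960097, minus strand). Tlr4, the receptor of lipopolysaccharide, is ENSMUSG00000039005 (chr4:66827584-66930284, plus strand), and Tlr5, the receptor of flagellin, is ENSMUSG00000079164 (chr1:182954788-182976044, plus strand). Because Tlr1 and Tlr6 are paralogues, 7.89% of the 100-base windows of Tlr1 transcripts occur in Tlr6, and 7.09% of those of Tlr6 occur in Tlr1, so some reads of these 2 genes may not have been assigned.

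Of the endosomal receptors, Tlr3, which binds double-stranded RNA, is ENSMUSG00000031639 (chr8:45395665-45411080, minus strand). Tlr7 and Tlr8, which bind single-stranded RNA, are neighbours on chromosome X, ENSMUSG00000044583 (chrX:167304929-167330558, minus strand) and ENSMUSG00000040522 (chrX:167242696-167264329, minus strand). Tlr9, for unmethylated CpG DNA, is ENSMUSG00000045322 (chr9:106222598-106226883, plus strand). Tlr13, which binds bacterial ribosomal RNA, is ENSMUSG00000033777 (chrX:106143204-106160493, plus strand). An antisense gene, Gm45542, shares 3.32% of the windows of Tlr3 and is absent from the count files, and the strand setting of the counting is not stated.

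Promoters are shown for 5 members chosen after their values were seen. They are those that rose over time in SO and were matched to a RefSeq start, Tlr1, Tlr2, Tlr8, Tlr9 and Tlr13. The core of an ETS site, GGAAGT on either strand, is in capitals. ETS factors include PU.1, a factor of myeloid and B cells. Each stretch runs from 250 bases before to 50 after a transcription start in RefSeq (GRCm38.p6): Tlr1 at chr5:64933509-64933808 (minus strand) and from a second start at chr5:64932650-64932949 (minus strand), Tlr2 at chr3:83841559-83841858 (minus strand), Tlr8 at chrX:167264280-167264579 (minus strand), Tlr9 at chr9:106222348-106222647 (plus strand) and Tlr13 at chrX:106143025-106143324 (plus strand).
Tlr1: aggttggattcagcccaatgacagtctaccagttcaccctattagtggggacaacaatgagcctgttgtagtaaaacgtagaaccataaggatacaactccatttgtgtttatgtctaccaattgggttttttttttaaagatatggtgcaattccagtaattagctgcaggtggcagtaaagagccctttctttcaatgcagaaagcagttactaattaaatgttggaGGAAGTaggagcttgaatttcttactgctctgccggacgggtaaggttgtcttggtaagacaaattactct
Tlr1, other start: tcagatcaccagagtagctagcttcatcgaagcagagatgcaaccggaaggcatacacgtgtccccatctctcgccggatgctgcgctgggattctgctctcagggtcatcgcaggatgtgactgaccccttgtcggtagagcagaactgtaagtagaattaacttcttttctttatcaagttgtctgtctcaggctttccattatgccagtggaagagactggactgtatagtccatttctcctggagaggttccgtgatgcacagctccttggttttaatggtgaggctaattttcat
Tlr2: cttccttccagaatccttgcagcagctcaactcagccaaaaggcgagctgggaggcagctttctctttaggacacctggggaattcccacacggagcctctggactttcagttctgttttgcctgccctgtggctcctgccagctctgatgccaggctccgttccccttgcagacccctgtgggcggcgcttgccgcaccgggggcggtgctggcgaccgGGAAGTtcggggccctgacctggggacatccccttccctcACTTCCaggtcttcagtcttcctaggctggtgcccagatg
Tlr8: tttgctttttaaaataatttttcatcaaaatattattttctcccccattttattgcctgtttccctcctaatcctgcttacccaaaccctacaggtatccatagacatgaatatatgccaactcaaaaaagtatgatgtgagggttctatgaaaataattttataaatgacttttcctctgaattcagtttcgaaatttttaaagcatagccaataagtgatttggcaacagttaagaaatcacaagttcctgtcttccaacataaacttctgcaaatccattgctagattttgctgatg
Tlr9: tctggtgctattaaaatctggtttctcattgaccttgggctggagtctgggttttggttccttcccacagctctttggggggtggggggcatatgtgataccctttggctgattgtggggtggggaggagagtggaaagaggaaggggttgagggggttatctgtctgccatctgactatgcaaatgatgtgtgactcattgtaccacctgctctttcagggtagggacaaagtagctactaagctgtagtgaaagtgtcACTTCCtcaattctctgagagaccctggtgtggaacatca
Tlr13: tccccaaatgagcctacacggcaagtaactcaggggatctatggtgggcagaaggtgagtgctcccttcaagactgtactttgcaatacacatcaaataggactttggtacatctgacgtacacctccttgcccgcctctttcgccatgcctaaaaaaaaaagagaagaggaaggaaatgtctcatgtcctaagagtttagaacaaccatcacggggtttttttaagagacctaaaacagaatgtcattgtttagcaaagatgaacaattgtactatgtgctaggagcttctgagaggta
The other start of Tlr1 and the promoters of Tlr8 and Tlr13 had no ETS core. A RefSeq start was matched for 8 of the 10 members, which gave 10 promoters in all. For Tlr4 and Tlr7 no transcript start was matched, which does not show that RefSeq lacks one. The ETS core was in 5 of these 10 promoters, from 4 members, Tlr1, Tlr2, Tlr6 and Tlr9, and in 23.8% of the 32851 promoters of all genes. The longer PU.1 letters GAGGAAGT, which contain the core, were in 2 of the 10 promoters, 1 of Tlr1 and 1 of Tlr9, and in 3.2% of all promoters. At 1 of its starts Tlr6 had a pattern of the interferon-stimulated response element (3.44% of all promoters) and the RUNX letters TGTGGT (16.8%). Tlr3 had an NF-kB pattern (1.47%). Tlr9 had the AP-1 letters TGANTCA (7.81%), Tlr6 at its other start and Tlr8 had the TATA letters TATAAA (13.6%), and a C/EBP pattern (2.94%) was in none of the 10 promoters. A match of letters is a description of the window and not evidence of a bound site, and both strands were searched for each motif.

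The members fell into 2 tiers of level. Tlr3 had the highest mean level per length, 5.93 ± 1.04 RPKM (SD, n = 30), followed by Tlr5 at 3.91 ± 0.882 RPKM, Tlr4 at 3.15 ± 0.478 RPKM and Tlr2 at 2.73 ± 0.578 RPKM (SD, n = 30 each). The other 6 lay under 1 RPKM: Tlr1 at 0.726 ± 0.474, Tlr7 at 0.568 ± 0.317, Tlr9 at 0.502 ± 0.236, Tlr13 at 0.48 ± 0.258, Tlr8 at 0.446 ± 0.254 and Tlr6 at 0.225 ± 0.0705 RPKM (SD, n = 30 each). Neighbours in this order overlapped within 1 SD from Tlr5 to Tlr4 to Tlr2 and from Tlr1 down to Tlr6. Tlr6 was the least counted member, with 13 to 50 counts in a library, beside 621 to 1483 counts for Tlr3. Tlr12 at 0.251 ± 0.0911 RPKM and Tlr11 at 0.166 ± 0.106 RPKM (SD, n = 30 each) were in the range of Tlr6, and Tlr11 had 0 counts in its lowest library.

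The low tier was also the variable one. Between the lowest and the highest of the 30 mice, the level differed 9.8-fold for Tlr8, 8.56-fold for Tlr1, 8.18-fold for Tlr7, 6.27-fold for Tlr13, 5.54-fold for Tlr9 and 4.5-fold for Tlr6. For the upper tier the same ratio was 3.04-fold for Tlr5, 2.19-fold for Tlr2, 2.09-fold for Tlr3 and 1.83-fold for Tlr4. The group with the lowest mean was SO at 12 weeks for 6 members, Tlr1, Tlr2, Tlr7, Tlr8, Tlr9 and Tlr13, LO at 12 weeks for Tlr3, Tlr4 and Tlr6, and PF at 32 weeks for Tlr5. The plot of the members by mouse shows every value.

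**Figure D1:**
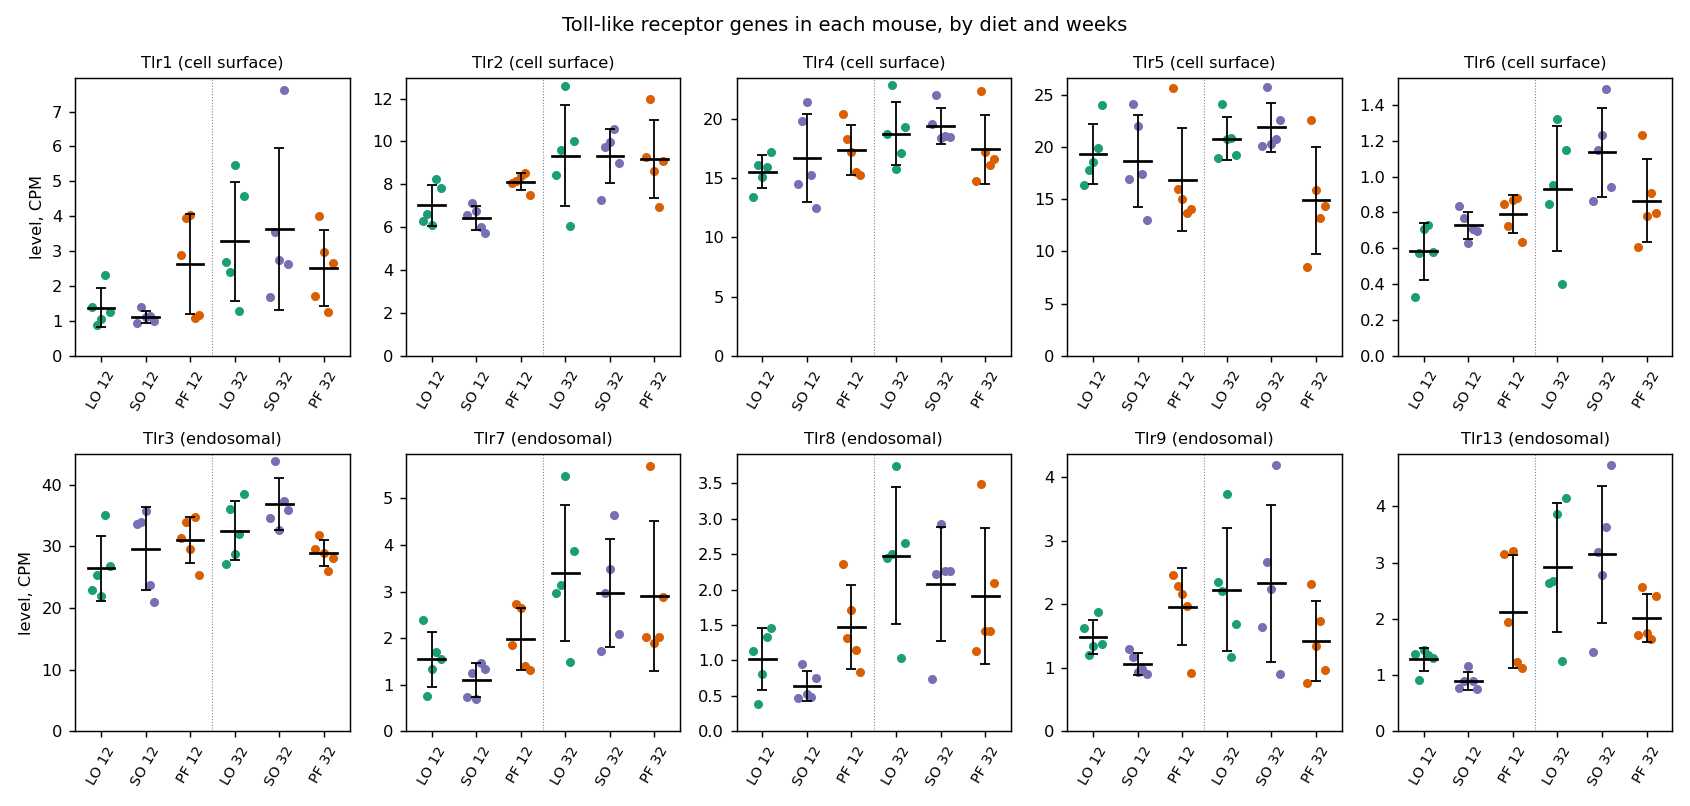
Level of each of the 10 members in CPM (vertical axis, from 0) in each of the 30 mice, by diet and weeks (horizontal axis); points are mice, horizontal bars are means of 5 mice and error bars are SD. Tlr1, Tlr7, Tlr8, Tlr9 and Tlr13 had their lowest group means in SO at 12 weeks, and the spread within groups differed, wide for Tlr1 in PF at 12 weeks and in SO at 32 weeks.

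At 12 weeks the comparison of PF with SO asks what lard did against soybean oil early on. Levels of Tlr1, Tlr2, Tlr7, Tlr8, Tlr9 and Tlr13 were higher on average in PF, by folds from 1.27 for Tlr2 to 2.4 for Tlr13, while Tlr3, Tlr4, Tlr5 and Tlr6 lay close together in both diets. By sign alone 9 of 10 members were higher in PF, all but Tlr5. With edgeR, 0 of the 10 members passed an adjusted p of 0.05 (the p corrected over all 15873 genes tested), where 0% of those genes passed either way. At an unadjusted p under 0.05, 6 of 10 members were higher, beside 6.14% of all genes. With DESeq2, 2 of 10, Tlr9 and Tlr13, were higher at an adjusted p under 0.05, beside 1.23% of all genes. The median log2 fold change, the base-2 logarithm of the ratio of levels, was 0.61 over the members and -0.01 over all genes.

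Tlr13 in PF at 12 weeks was at 3.15, 1.95, 3.2, 1.24 and 1.12 CPM in mice 1 to 5, and in SO at 0.768, 0.891, 1.16, 0.889 and 0.755 CPM. 4 of the 5 PF mice were above every SO mouse, and PF mouse 5 lay within the SO range. The log2 fold change was 1.27 (SE 0.29, 95% interval 0.65 to 1.88), with an unadjusted p of 0.000501, an edgeR adjusted p of 0.138 and a DESeq2 adjusted p of 0.00838. Tlr9 in PF was at 2.46, 2.28, 2.16, 1.98 and 0.921 CPM, and in SO at 1.3, 1.17, 0.929, 0.981 and 0.9 CPM. Again 4 of 5 PF mice were above every SO mouse, and PF mouse 5 was inside the SO range. For Tlr9 the log2 fold change was 0.90 (SE 0.24, 95% interval 0.40 to 1.41), with an edgeR adjusted p of 0.171 and a DESeq2 adjusted p of 0.0361. Without PF mouse 5, both genes passed with edgeR as well, at an adjusted p of 0.0252 each. The log2 fold changes were then 1.43 for Tlr13 and 1.08 for Tlr9. In that fit 131 genes were called, beside 0 with all mice.

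The other endosomal receptors with an unadjusted p under 0.05 were Tlr8 and Tlr7. Tlr8 was at 2.36, 1.31, 1.71, 1.15 and 0.834 CPM in PF and at 0.468, 0.953, 0.531, 0.491 and 0.755 CPM in SO, so 4 of 5 PF mice were above every SO mouse. Its log2 fold change was 1.21 (SE 0.35, 95% interval 0.46 to 1.96; edgeR adjusted p 0.239, DESeq2 adjusted p 0.0665). Tlr7 was at 1.85, 2.73, 2.64, 1.4 and 1.32 CPM in PF and at 0.735, 1.26, 0.697, 1.47 and 1.34 CPM in SO. PF mice 1, 2 and 3 were above the SO range for Tlr7 and mice 4 and 5 were inside it. The log2 fold change of Tlr7 was 0.86 (SE 0.31, 95% interval 0.19 to 1.53; edgeR adjusted p 0.386, DESeq2 adjusted p 0.223).

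Among the cell-surface receptors, Tlr1 and Tlr2 were those with an unadjusted p under 0.05, higher in PF. Tlr1 was at 2.9, 3.95, 4.04, 1.07 and 1.18 CPM in PF and at 0.936, 1.41, 1.1, 1.13 and 0.987 CPM in SO. The PF mice of Tlr1 formed a high set, mice 1, 2 and 3, and a low set, mice 4 and 5, which overlapped the SO mice. The log2 fold change of Tlr1 was 1.25 (SE 0.37, 95% interval 0.46 to 2.04; edgeR adjusted p 0.239, DESeq2 adjusted p 0.0607). Tlr2 was at 8.07, 8.16, 8.39, 8.51 and 7.51 CPM in PF and at 6.58, 7.13, 6.74, 6.01 and 5.75 CPM in SO. For Tlr2, and for no other member, every PF mouse was above every SO mouse, a separation that 1.06% of all genes tested showed in the same direction. The difference in Tlr2 was small but closely measured, 0.35 on the log2 scale (SE 0.10, 95% interval 0.13 to 0.57; edgeR adjusted p 0.239, DESeq2 adjusted p 0.0754).

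The remaining 4 members had log2 fold changes near 0 between PF and SO at 12 weeks, each within 1 SE. They were 0.07 (SE 0.14) for Tlr4, -0.13 (SE 0.19) for Tlr5, 0.13 (SE 0.21) for Tlr6 and 0.08 (SE 0.16) for Tlr3. The 95% intervals, -0.23 to 0.36 for Tlr4 and -0.26 to 0.42 for Tlr3, were narrower than the differences measured for Tlr1, Tlr8 and Tlr13. The direction of Tlr4 and of Tlr3 turned without SO mouse 5, to -0.02 and -0.03, that of Tlr4 also with mice numbered 2 to 5 alone, chosen after seeing the data (-0.04), and Tlr5 was at -0.33 without PF mouse 1.

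The comparison of PF with LO at 12 weeks shares the PF mice with the previous comparison. With edgeR 0 of 10 members passed, as did 0% of genes, with DESeq2 0 of 10, and 2 of 10 were higher at an unadjusted p under 0.05, beside 4.31% of genes. Those 2 were Tlr13, with a log2 fold change of 0.74 (SE 0.28; p 0.0188, adjusted p 0.49), and Tlr1, with 0.93 (SE 0.37; p 0.0229, adjusted p 0.497). Tlr13 in LO was at 1.37, 0.921, 1.45, 1.36 and 1.31 CPM, below PF mice 1, 2 and 3 and around PF mice 4 and 5. Tlr1 in LO was at 1.4, 0.889, 1.06, 2.32 and 1.24 CPM, and LO mouse 4 was the only LO mouse above 1.4 CPM. The sign was negative for Tlr5 alone, -0.19 (SE 0.19). The value of Tlr5 was -0.38 without PF mouse 1 and -0.10 without LO mouse 5.

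LO and SO at 12 weeks, the pair of plant oils, gave 0 of 10 members with edgeR, where 0% of genes passed, 0 with DESeq2, and 0 of 10 at an unadjusted p under 0.05, beside 2.52% of genes that were higher. Tlr8 came nearest among the endosomal receptors by size, with a log2 fold change of 0.68 (SE 0.36, 95% interval -0.07 to 1.44). Tlr9 had 0.50 (SE 0.24; p 0.0515), and Tlr6 had a negative value, -0.31 (SE 0.21), which was -0.15 without LO mouse 1. For Tlr13, Tlr9, Tlr8, Tlr7, Tlr1 and Tlr2 the group means thus stood in the order SO, LO, PF at 12 weeks. The SD of PF was wider than the distance from LO to SO for all of these but Tlr2. The means of Tlr2 were 6.44 CPM in SO, 7.02 CPM in LO and 8.13 CPM in PF, with an SD of 0.387 CPM in PF.

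**Figure D2:**
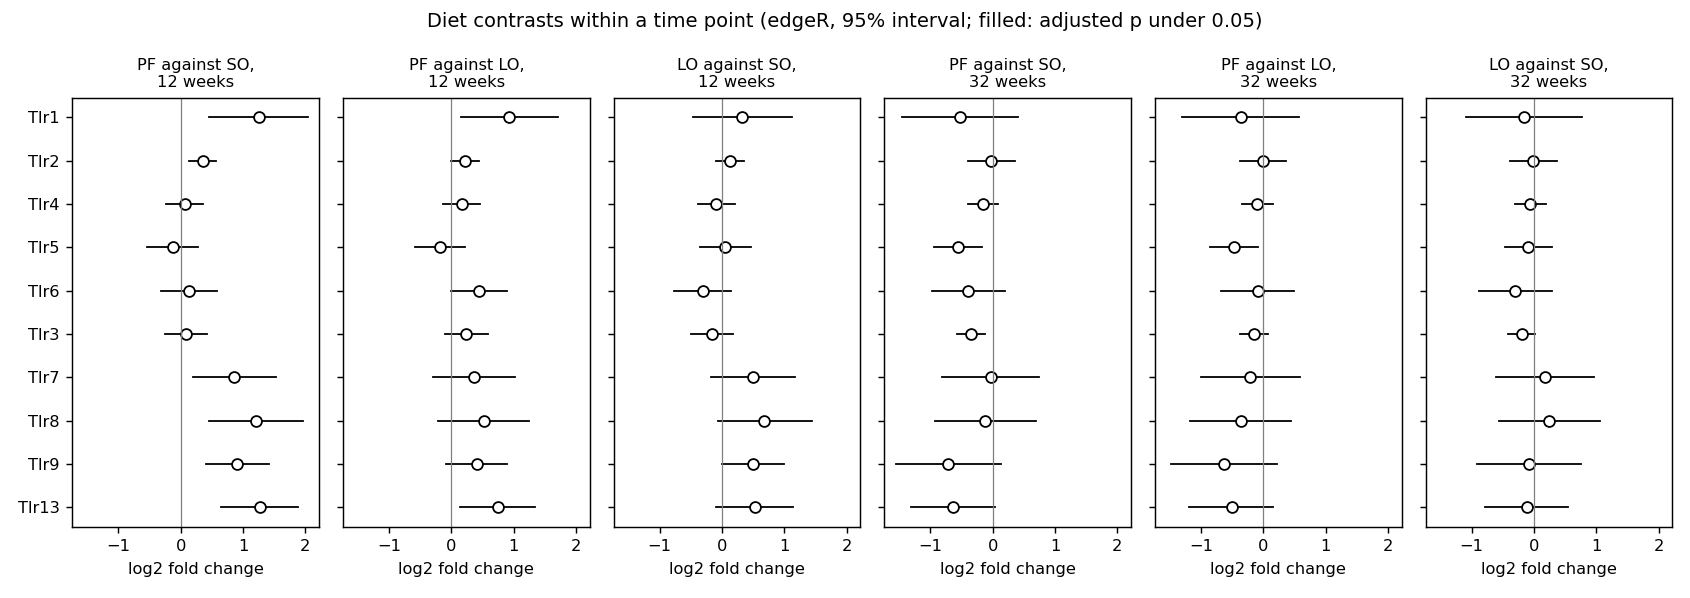
log2 fold change (horizontal axis) of each of the 10 members (vertical axis) in the 6 diet comparisons, 3 at 12 weeks and 3 at 32 weeks; points are edgeR estimates, lines are 95% intervals and filled points would mark an adjusted p under 0.05. No point is filled, and the estimates lie mostly right of 0 for PF against SO at 12 weeks and left of 0 for PF against SO at 32 weeks.

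At 32 weeks the same comparison of PF with SO asks whether lard and soybean oil still differed after long feeding. All 10 members had lower means in PF than in SO, and 0 of 10 passed with edgeR, where 0% of genes did, or with DESeq2. At an unadjusted p under 0.05, 2 of 10 members, Tlr3 and Tlr5, were lower, beside 5.07% of genes. The median log2 fold change of the members was -0.37 and that of all genes -0.00.

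Tlr3 at 32 weeks was at 29.5, 31.9, 29, 26 and 28.1 CPM in PF and at 34.6, 43.8, 32.7, 37.3 and 35.9 CPM in SO. Every PF mouse was below every SO mouse, a separation that 0.993% of genes showed in this direction. Tlr3 thus had a log2 fold change of -0.35 (SE 0.10, 95% interval -0.57 to -0.12; p 0.00453, edgeR adjusted p 0.349, DESeq2 adjusted p 0.12). Tlr5 was at 8.47, 22.6, 15.9, 13.2 and 14.3 CPM in PF and at 20.1, 25.7, 20.3, 20.8 and 22.6 CPM in SO. PF mouse 2 was among the SO mice for Tlr5, and the other 4 PF mice were below them, mouse 1 the lowest of all 30 mice. For Tlr5 the log2 fold change was -0.56 (SE 0.18, 95% interval -0.94 to -0.18; p 0.00692, edgeR adjusted p 0.359, DESeq2 adjusted p 0.155).

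The 6 members that were higher in PF at 12 weeks at an unadjusted p under 0.05 had estimates from -0.71 to -0.02 at 32 weeks, none of them past an unadjusted p of 0.05. Tlr13 had a log2 fold change of -0.63 (SE 0.32, 95% interval -1.31 to 0.04), Tlr9 -0.71 (SE 0.40, -1.56 to 0.14) and Tlr1 -0.53 (SE 0.44, -1.46 to 0.41). SO mouse 4 carried the highest Tlr1 level of the study, 7.61 CPM, and without it the log2 fold change of Tlr1 was -0.07 and that of Tlr9 -0.39. Tlr2 had -0.02 (SE 0.18), Tlr7 -0.03 (SE 0.37) and Tlr8 -0.12 (SE 0.38). The sign of these 3 turned with single mice, for Tlr2 without PF mouse 3 or 4 or SO mouse 2, 3 or 4 (up to 0.07), and for Tlr7 without PF mouse 1, 3 or 4 or SO mouse 3 or 4 (up to 0.18). For Tlr8 it turned without PF mouse 1 or SO mouse 3 (up to 0.03). Without PF mouse 2 the 3 values were -0.12, -0.42 and -0.44.

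PF against LO at 32 weeks gave 0 of 10 members with edgeR, where 0% of genes passed, and 0 with DESeq2. Tlr5 alone was lower at an unadjusted p under 0.05, beside 4.12% of genes, with a log2 fold change of -0.47 (SE 0.18; p 0.0185, adjusted p 0.485). Tlr5 in LO was at 18.9, 24.1, 20.8, 20.9 and 19.2 CPM, above every PF mouse but mouse 2. LO against SO at 32 weeks gave 0 of 10 members with edgeR, where 0% of genes passed, 0 with DESeq2 and 0 at an unadjusted p under 0.05, beside 1.5% of genes that were higher. Tlr8 had a log2 fold change of 0.24 (SE 0.38) and Tlr6 of -0.30 (SE 0.27), which were 0.03 without SO mouse 1 and -0.11 without LO mouse 4.

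With edgeR, members passed over time and in no diet comparison. In SO, the levels of 6 of 10 members rose from 12 to 32 weeks, Tlr1, Tlr2, Tlr7, Tlr8, Tlr9 and Tlr13, and none fell, beside 5.25% of all 16605 genes that rose with edgeR. DESeq2 called the same 6 members, beside 5.98% of genes. 4 of the 5 endosomal receptors were among them and 2 of the 5 cell-surface receptors. The median log2 fold change was 1.44 over the endosomal receptors, 0.54 over the cell-surface receptors and -0.00 over all genes. In 5 members, Tlr1, Tlr2, Tlr6, Tlr7 and Tlr13, every SO mouse at 32 weeks was above every SO mouse at 12 weeks, beside 4.9% of genes. The SO mice of 12 weeks are also those of PF against SO at 12 weeks, so these comparisons are not independent.

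Tlr13 rose in SO from the 12-week values above to 1.41, 3.19, 2.78, 3.63 and 4.73 CPM at 32 weeks. Its lowest mouse, mouse 1, was still above the whole 12-week range. Its log2 fold change over time was 1.82 (SE 0.32, 95% interval 1.17 to 2.48; adjusted p 0.00266), which put Tlr13 at place 24 of all genes by p. Tlr8 rose to 0.738, 2.22, 2.92, 2.26 and 2.26 CPM, with mouse 1 inside the 12-week range and the other 4 above it (log2 fold change 1.70, SE 0.39, adjusted p 0.0106). Tlr7 rose to 1.73, 2.96, 3.48, 4.64 and 2.09 CPM (1.44 on the log2 scale, SE 0.36, adjusted p 0.0183). Tlr9 rose to 1.64, 2.66, 2.24, 4.19 and 0.911 CPM, with mouse 5 at the 12-week level (1.15 on the log2 scale, SE 0.34, adjusted p 0.0411).

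At the cell surface, Tlr1 rose in SO to 1.67, 3.55, 2.75, 7.61 and 2.62 CPM (log2 fold change 1.71, SE 0.43, adjusted p 0.0182). Tlr2 rose to 7.28, 9.75, 9.96, 10.6 and 8.99 CPM (0.54 on the log2 scale, SE 0.14, adjusted p 0.0241). Tlr6 was at 0.866, 1.15, 1.23, 1.49 and 0.94 CPM, all above its 12-week values of 0.835, 0.768, 0.631, 0.705 and 0.697 CPM, yet did not pass (0.65 on the log2 scale, SE 0.24, adjusted p 0.11). Tlr3 (0.32, SE 0.14), Tlr4 (0.23, SE 0.13) and Tlr5 (0.24, SE 0.19) had small log2 fold changes. Their adjusted p was 0.175, 0.346 and 0.533. With 1 mouse left out these fold changes ranged from 0.21 to 0.40, from 0.13 to 0.33 and from 0.13 to 0.34. Each was lowest without SO mouse 5 of 12 weeks. The receptors of flagellin, lipopolysaccharide and double-stranded RNA were thus the members that time in SO moved least.

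Single mice decided part of this count. Tlr8 and Tlr13 passed whichever of the 10 SO mice was left out. Without mouse 4 at 32 weeks those 2 were the only members that passed. Adjusted p was then 0.116 for Tlr1, 0.105 for Tlr2, 0.0881 for Tlr7 and 0.212 for Tlr9. The loss was general, since 226 genes were called in either direction in that fit. With all mice 871 rose, a count that leaves out the genes that fell. Tlr1 also failed without mouse 5 at 12 weeks (0.0535), and Tlr7 without mouse 1 (0.0534) or mouse 3 (0.0514) at 12 weeks. Tlr2 also failed without mouse 1, 4 or 5 at 12 weeks or mouse 2 or 3 at 32 weeks, with adjusted p from 0.0529 to 0.0817. Tlr9 passed only without mouse 1 or mouse 5 at 32 weeks, and failed without any other SO mouse. Tlr9 failed too without the filter on low counts (adjusted p 0.0625), with the 10 SO mice alone (0.0728) and with the mouse number as a block (0.053), where the other 5 members passed. With mice numbered 2 to 5 alone, chosen after seeing the data, all 6 passed.

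In LO, the level of 1 of 10 members, Tlr13, rose from 12 to 32 weeks with edgeR, beside 1.74% of all genes. DESeq2 called 4, Tlr1, Tlr7, Tlr8 and Tlr13, beside 4.41% of genes. Tlr13 in LO at 32 weeks was at 2.64, 2.68, 3.86, 1.26 and 4.15 CPM, so 4 of 5 mice were above the whole 12-week range and mouse 4 was inside it. In LO the log2 fold change of Tlr13 was 1.16 (SE 0.31, 95% interval 0.53 to 1.80; adjusted p 0.0401, DESeq2 adjusted p 0.00934). Tlr8 at 2.45, 2.5, 3.74, 1.04 and 2.66 CPM, beside 1.14, 0.381, 0.812, 1.33 and 1.46 CPM at 12 weeks, had a log2 fold change of 1.24 (SE 0.38, edgeR adjusted p 0.0645). The same mouse 4 was low for it.

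Tlr7 in LO at 32 weeks was at 2.96, 3.14, 5.49, 1.5 and 3.88 CPM, beside 2.39, 0.762, 1.34, 1.7 and 1.55 CPM at 12 weeks (log2 fold change 1.10, SE 0.36, edgeR adjusted p 0.0779). Tlr1 was at 2.69, 2.39, 5.46, 1.29 and 4.58 CPM (1.22 on the log2 scale, SE 0.43, edgeR adjusted p 0.1). LO mouse 4 at 32 weeks had the lowest level of its group for all of Tlr1, Tlr2, Tlr6, Tlr7, Tlr8, Tlr9 and Tlr13. Without it 6 members passed with edgeR: Tlr1 (adjusted p 0.0436), Tlr2 (0.0223), Tlr6 (0.0224), Tlr7 (0.0294), Tlr8 (0.0237) and Tlr13. The gain was not particular to the members, since 1043 genes were called in that fit, beside 448 with all mice. The call of Tlr13 was lost without any 1 of 8 LO mice, all but mouse 4 of either time, with adjusted p from 0.0541 to 0.132. It was kept with the mouse number as a block and with mice numbered 2 to 5 alone. It was lost without the filter on low counts (adjusted p 0.0533) and with the 10 LO mice alone (0.0903). The log2 fold changes of Tlr2, Tlr6, Tlr9, Tlr4, Tlr3 and Tlr5 were 0.39 (SE 0.14), 0.66 (SE 0.25), 0.56 (SE 0.34), 0.26 (SE 0.13), 0.28 (SE 0.14) and 0.09 (SE 0.19). Without LO mouse 3 at 32 weeks that of Tlr9 was 0.32, and without LO mouse 5 at 12 weeks that of Tlr5 was 0.20.

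In PF, 0 of 10 members passed between 12 and 32 weeks with edgeR, where 0.0301% of genes did, 0 with DESeq2, and 0 at an unadjusted p under 0.05, beside 4.98% of genes that were higher. The median log2 fold change of the members was -0.04. Tlr13 in PF at 32 weeks was at 1.71, 2.56, 1.75, 1.65 and 2.41 CPM, inside the range of PF at 12 weeks (-0.09 on the log2 scale, SE 0.31, 95% interval -0.72 to 0.53). This sign turned without PF mouse 1 or mouse 3 of 12 weeks, to 0.10 and 0.11, and with mice numbered 2 to 5 alone, chosen after seeing the data, to 0.16. Tlr9 at 0.756, 2.32, 1.34, 1.73 and 0.971 CPM had a log2 fold change of -0.48 (SE 0.34), and Tlr7 at 2.02, 5.7, 1.9, 2.02 and 2.88 CPM one of 0.53 (SE 0.35). Without PF mouse 2 of 32 weeks the value of Tlr7 was 0.14 and without PF mouse 1 of 32 weeks that of Tlr9 was -0.30.

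Whether the diets differed in their course over time was tested directly, as the difference between PF and SO at 32 weeks minus that at 12 weeks. With edgeR 0 of 10 members passed, as did 0% of genes, and 5 of 10 were lower at an unadjusted p under 0.05, beside 6.65% of genes. With DESeq2 1 of 10, Tlr13, was lower at an adjusted p under 0.05, beside 0.221% of genes. The change of Tlr13 was -1.92 on the log2 scale (SE 0.44, 95% interval -2.82 to -1.02), with an unadjusted p of 0.000166 at place 13 of all genes, an edgeR adjusted p of 0.199 and a DESeq2 adjusted p of 0.0233. The changes of Tlr9, -1.62 (SE 0.48; adjusted p 0.237), and of Tlr1, -1.79 (SE 0.60; adjusted p 0.278), were of like size. Those of Tlr8 and Tlr3 were -1.34 (SE 0.54) and -0.44 (SE 0.20). Tlr7 (-0.91, SE 0.50), Tlr2 (-0.38, SE 0.20), Tlr4 (-0.24, SE 0.18), Tlr5 (-0.44, SE 0.27) and Tlr6 (-0.54, SE 0.34) had unadjusted p above 0.05.

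The matching change of PF against LO gave 0 of 10 members with edgeR, where 0% of genes passed, and 0 with DESeq2. At an unadjusted p under 0.05 were 3 of 10, beside 4.19% of genes that were lower: Tlr13 (-1.26, SE 0.43), Tlr1 (-1.29, SE 0.59) and Tlr9 (-1.04, SE 0.47), with adjusted p of 0.514, 0.625 and 0.625. The change of LO against SO gave 0 of 10 with edgeR, where 0% of genes passed, 0 with DESeq2 and 0 at an unadjusted p under 0.05, beside 2.23% of genes that were lower. For Tlr13 it was -0.66 (SE 0.44). For Tlr4 it was 0.03 (SE 0.18), and its sign turned without SO mouse 2 (-0.01) or 3 (-0.05) of 12 weeks or LO mouse 2 of 32 weeks (-0.04). These comparisons share mice, so their values for a member are not independent. With DESeq2's size factors in place of TMM, the sign of all 10 members was the same in all 12 comparisons.

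**Figure D3:**
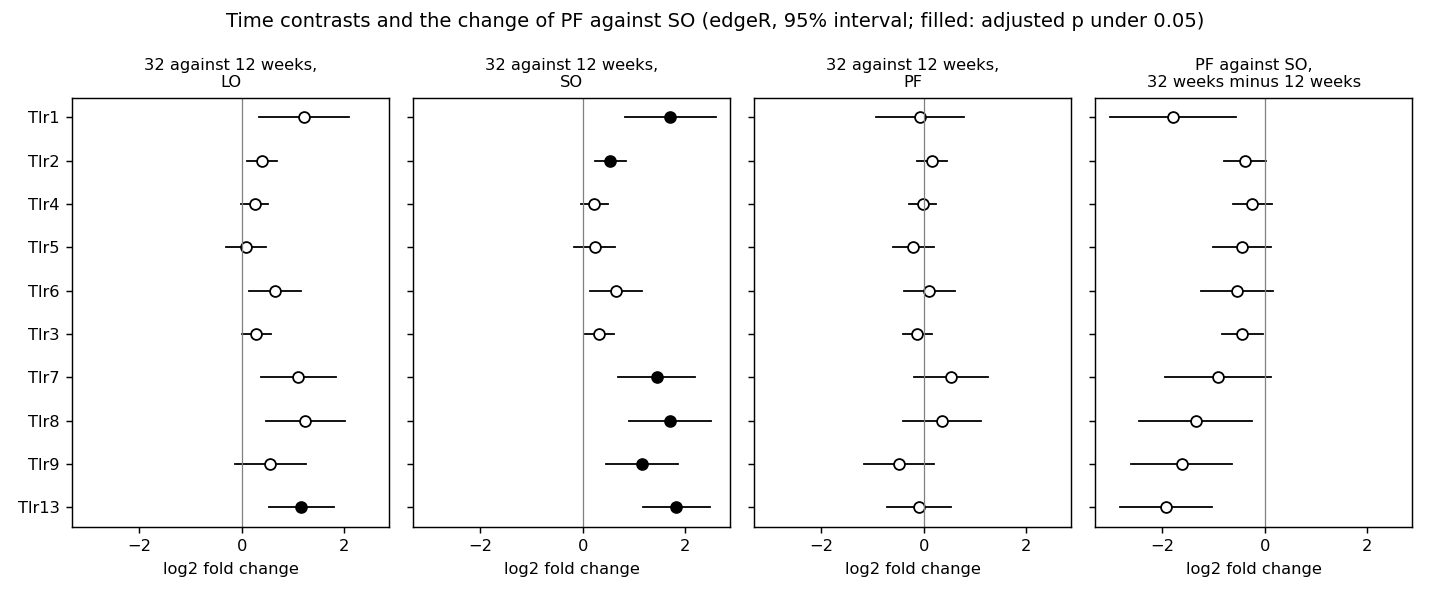
log2 fold change (horizontal axis) of each of the 10 members (vertical axis) between 32 and 12 weeks in LO, SO and PF, and the change of PF against SO with time; points are edgeR estimates, lines are 95% intervals and filled points mark an adjusted p under 0.05. In SO 6 points are filled, in LO 1 (Tlr13), in PF and in the change none.

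Leukocyte markers moved with the members. The 4 pan-leukocyte markers Ptprc, Coro1a, Laptm5 and Cd53, with Laptm5 the most abundant and none at 0 in any mouse, summed to 30.6, 29.7, 29.5, 28.8 and 35.2 CPM in SO at 12 weeks. In PF at 12 weeks they summed to 76.9, 91.3, 84.7, 50.4 and 34.7 CPM and in LO to 46.9, 24.6, 33.2, 64.5 and 48.1 CPM. PF mice 1, 2 and 3, the mice with high Tlr1 and Tlr7, had the 3 highest sums of the 12-week mice, and PF mouse 5 lay in the SO range. At 32 weeks the sums were 50.5, 77.4, 81, 159 and 69 CPM in SO, 85.2, 75.1, 101, 32.9 and 88.3 CPM in LO, and 69.2, 103, 55.9, 43.2 and 74.2 CPM in PF. SO mouse 4, with the highest Tlr1, had the highest sum, and LO mouse 4, low in 7 members, had the lowest sum of the 32-week mice. In bulk tissue, more leukocytes and more receptor RNA in each leukocyte cannot be told apart, and the part of the leukocyte markers in the differences of the members was not tested.

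Over the 30 mice, the level of 9 of the 10 members was correlated with the mean log2 level of these 4 markers at an adjusted p under 0.05 (permutation tests, 2-sided, adjusted over the 10 members). Of 13749 genes with a mean of at least 1 CPM, 18.3% were positively correlated with these markers at an unadjusted permutation p under 0.05 for r, beside the same 9 of 10 members. At 12 weeks the share was 9% of genes beside 6 members, and at 32 weeks 10.9% beside 7. Tlr1 followed the markers most closely, with Pearson r = 0.93 and Spearman rho = 0.911. Then came Tlr7 (r = 0.89, rho = 0.902), Tlr8 (0.868, 0.855), Tlr13 (0.863, 0.857) and Tlr2 (0.858, 0.854). Each of these 5 had a permutation p of 1e-05, the smallest that 100000 permutations can give, and an adjusted p of 2e-05. Tlr9 (r = 0.707, rho = 0.709, adjusted p 3.3e-05 and 5e-05) and Tlr6 (r = 0.649, rho = 0.701, adjusted p 0.000229 and 5.7e-05) followed less closely. Tlr3 (r = 0.441, rho = 0.379, adjusted p 0.0176 and 0.0425) and Tlr4 (r = 0.395, rho = 0.417, adjusted p 0.0337 and 0.0281) were loosely related, and Tlr5 was not (r = 0.126, rho = 0.168, permutation p 0.508 and 0.37).

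The relation of 6 members held within each time point. At 12 weeks Pearson r was 0.909 for Tlr1, 0.876 for Tlr9, 0.87 for Tlr8, 0.84 for Tlr13, 0.823 for Tlr7 and 0.743 for Tlr2, with adjusted permutation p from 0.0002 to 0.00305, and these 6 were all that passed. At 32 weeks those 6 and Tlr6 passed, with r of 0.897 for Tlr1, 0.874 for Tlr2, 0.862 for Tlr7, 0.787 for Tlr6, 0.743 for Tlr13, 0.723 for Tlr8 and 0.595 for Tlr9. Without the 2 mice farthest from the median of the markers, r was 0.91 for Tlr1 and 0.65 for Tlr9, and the relation of Tlr3 no longer passed (r = 0.358, adjusted permutation p 0.0687), nor did that of Tlr4 by r (0.392, adjusted permutation p 0.0503). Within neither time point did Tlr3, Tlr4 or Tlr5 pass. With each group's mean taken out, 7 members still passed, all but Tlr3, Tlr4 and Tlr5.

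With the 10 macrophage markers, 7 of 10 members passed over the 30 mice, where 18.2% of genes were positively correlated at an unadjusted permutation p under 0.05 beside 7 members. The highest values were those of Tlr8 (r = 0.922, rho = 0.914), Tlr7 (0.895, 0.895) and Tlr13 (0.874, 0.851), ahead of Tlr2 (0.848, 0.823) and Tlr1 (0.816, 0.81), each with an adjusted permutation p of 2e-05 for r. Tlr9 (r = 0.641) and Tlr6 (r = 0.611) passed as well. Tlr3, Tlr4 and Tlr5 did not, with r of 0.291, 0.341 and 0.124. Within 12 weeks 6 members passed by r, without Tlr6 (r = 0.17). Within 32 weeks 6 passed by r, without Tlr9 (r = 0.479, adjusted permutation p 0.102), which passed by rho (0.575, adjusted permutation p 0.04). Beside 6 members each, 8.91% of genes at 12 weeks and 10.8% at 32 weeks were positively correlated at that unadjusted p. Without the 2 mice farthest from the median 8 passed, with Tlr4 among them (r = 0.422, adjusted permutation p 0.0322), and with each group's mean taken out 7 by r and 6 by rho, where Tlr6 failed (adjusted permutation p 0.123). With 5 B cell markers, a list tried after seeing the data, 8 members passed by r over 30 mice but 1 at 12 weeks, where 16.4% and 6.84% of genes were positively correlated at an unadjusted permutation p under 0.05 beside 8 and 6 members.

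**Figure D4:**
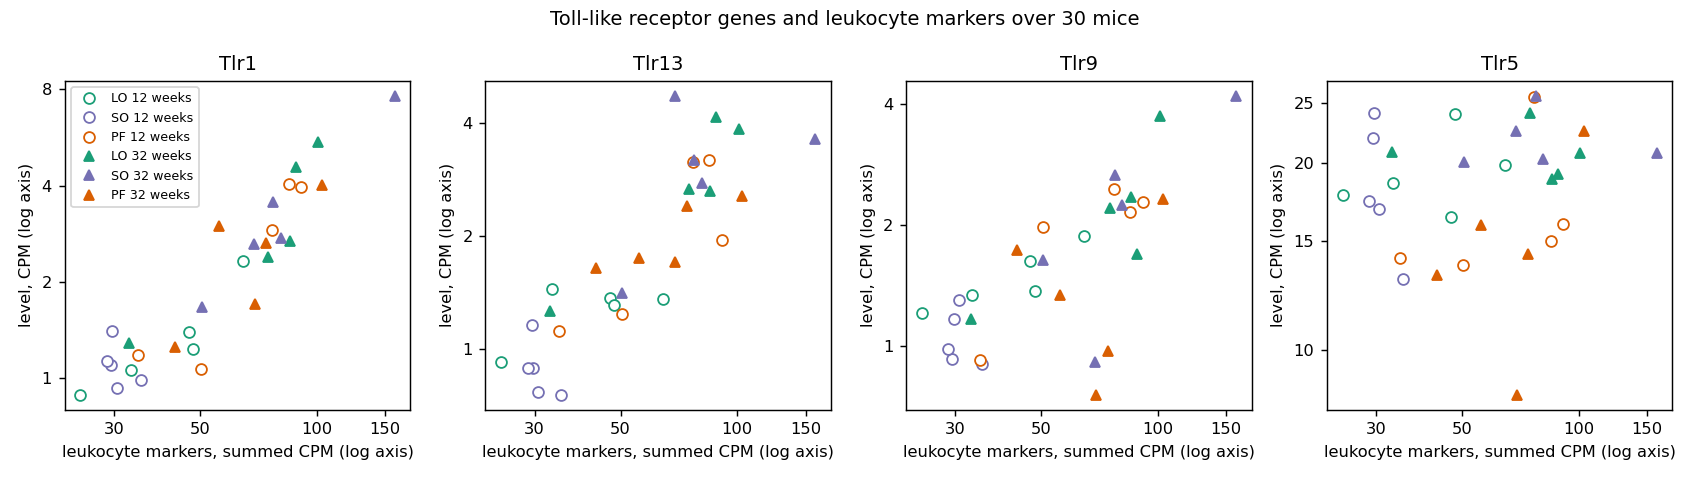
Level in CPM (vertical log axis) of Tlr1, Tlr13, Tlr9 and Tlr5 against the summed CPM of the 4 leukocyte markers (horizontal log axis) in 30 mice; colours are diets, open circles 12 weeks and filled triangles 32 weeks. Tlr1 and Tlr13 follow the markers in both time points (r = 0.93 and 0.863 over 30 mice), Tlr9 has some 32-week mice below the trend (r = 0.707) and Tlr5 shows no trend (r = 0.126). Each r is that with the mean log2 level of the 4 markers and not with the plotted sum.

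The members were also set against the leukocyte markers, a scale chosen after seeing the data. At 12 weeks the leukocyte sum was 30.8 ± 2.55 CPM in SO and 67.6 ± 24.1 CPM in PF (SD, n = 5 each). A member that differed less than this sum between the diets must have a lower share in PF. The shares at 12 weeks thus restate the fold changes given above and are no separate result. Tlr1, Tlr7, Tlr8, Tlr9 and Tlr13 had like group means in SO and PF, and Tlr2, Tlr3, Tlr4, Tlr5 and Tlr6 had lower ones in PF. The level of Tlr13 was 2.94 ± 0.679% (SD, n = 5) of the summed leukocyte CPM in SO at 12 weeks, 3.14 ± 0.841% in PF and 3.17 ± 0.887% in LO (SD, n = 5 each). At 32 weeks it was 3.9 ± 1.79% in SO, 3.03 ± 0.565% in PF and 3.8 ± 0.581% in LO (SD, n = 5 each). The level of Tlr1 was between 3.19 ± 0.435% in LO at 12 weeks and 4.17 ± 1.08% in LO at 32 weeks (SD, n = 5 each). Tlr8 ran from 2.08 ± 0.671% in SO at 12 weeks to 3.22 ± 0.316% in LO at 32 weeks (SD, n = 5 each). Tlr7 was at 3.58 ± 1.19% in SO and 3.02 ± 0.522% in PF at 12 weeks, and Tlr9 at 3.46 ± 0.664% and 2.97 ± 0.603% (SD, n = 5 each). For the other 5 the shares at 12 weeks were lower in PF. Tlr5 was at 61.6 ± 17.3% in SO and 27.3 ± 10% in PF, Tlr3 at 97.6 ± 26% and 51 ± 18.6%, and Tlr4 at 55.1 ± 15% and 28.4 ± 9.9% (SD, n = 5 each). Tlr6 was at 2.38 ± 0.31% and 1.3 ± 0.459%, and Tlr2 at 21.1 ± 2.93% and 13.6 ± 5.49% (SD, n = 5 each). These shares were not tested.

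The members also sorted by how they followed each other over the 30 mice, given as description. Spearman rho was 0.882 for Tlr7 with Tlr8, 0.867 for Tlr1 with Tlr7, 0.867 for Tlr1 with Tlr13 and 0.86 for Tlr8 with Tlr13. Tlr4 went with Tlr5 (0.737) and with Tlr3 (0.646), while Tlr5 and Tlr7 (0.211) and Tlr3 and Tlr7 (0.28) had little in common. The pairs share libraries and depth.

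The genes most like each member by Spearman rho over the 30 mice were sought among 13650 genes with a mean of at least 1 CPM. Near Tlr7 were Sla (0.943), Arhgap30 (0.938) and Cybb (0.937), the last a subunit of the phagocyte oxidase. Near Tlr8 were Rassf4 (0.95), Tm6sf1 (0.946) and the Fc receptor gene Fcgr3 (0.943), and near Tlr13 Cd84 (0.924), Tifab (0.916) and Apobec1 (0.915). Tlr1 was nearest Arhgap30 (0.932), Csf2rb2 (0.925) and Cd38 (0.924), and Tlr2 was nearest the costimulatory gene Cd86 (0.938), Mpeg1 (0.929) and Ms4a6c (0.927). Tlr9 was nearest 9930111J21Rik2 (0.829), Trpm2 (0.825) and Ciita (0.818), the master regulator of MHC class II genes, and Tlr6 nearest Lair1 (0.82), Spn (0.798) and Dock2 (0.795). Tlr3 was nearest the interferon-induced Ifit2 (0.822), with Gm11131 and Gm17017 (0.812 each). Tlr4 was nearest the circadian gene Clock (0.846), Manea (0.83) and Zkscan8 (0.822), and Tlr5 nearest the polycystin gene Pkd2 (0.893), Zfp462 (0.873) and Tgfa (0.856). The lists of Tlr4, Tlr5 and Tlr8 were the only ones without change when the mean had to be at least 5 CPM.

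The other genes of the pathway are given for PF against SO at 12 weeks, by whose p they were named, for SO over time, where the most members passed with edgeR, and in part for LO over time. The first 2 of these comparisons share the SO mice of 12 weeks. A gene named because those mice were low leans towards a rise over time in SO, so that rise is no independent result. Their counts stand beside shares of all genes of 6.14% at an unadjusted p under 0.05 and 1.23% with DESeq2 in the first, 5.25% with edgeR and 5.98% with DESeq2 in the second, and 1.74% and 4.41% in the third. At an unadjusted p under 0.05, 2091 of 16605 genes were higher and 1180 lower over time in SO, and 1887 and 1517 in LO. Of 11 co-receptors and chaperones, 0 passed with edgeR between PF and SO at 12 weeks, 3 were higher at an unadjusted p under 0.05 and 2 with DESeq2. Those 2 form the RP105 complex that sits beside Tlr4 on B cells and macrophages. Ly86 was at 8.87, 8.08, 11.1, 6.37 and 4.83 CPM in PF and at 3.68, 3.23, 3.39, 3.43 and 3.72 CPM in SO, with no overlap (log2 fold change 1.19, SE 0.25, edgeR adjusted p 0.138, DESeq2 adjusted p 0.00253). Its partner Cd180 was at 2.46 ± 0.897 CPM in PF and 1.25 ± 0.235 CPM in SO (SD, n = 5 each; log2 fold change 0.99, SE 0.27, DESeq2 adjusted p 0.046). Both rose over time in SO with edgeR, Ly86 by 1.35 (SE 0.28, adjusted p 0.00681) and Cd180 by 1.94 (SE 0.35, adjusted p 0.0028), 2 of 11 in all (3 with DESeq2). In LO over time 2 of 11 rose, among them Lbp, which hands lipopolysaccharide on to Tlr4, by 0.79 (SE 0.20, adjusted p 0.0331). Without PF mouse 5, Ly86 and Cd180 passed at 12 weeks with edgeR too (adjusted p 0.0252 and 0.0262). Lbp in LO failed without mouse 2, 3 or 5 at 12 weeks or mouse 1, 3 or 5 at 32 weeks (adjusted p 0.0526 to 0.105) and with the 10 LO mice alone (0.118). Ly86 in LO, called with DESeq2 only (0.0145), passed with edgeR without mouse 4 at 12 weeks (0.0209) or at 32 weeks (0.0129).

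Of 20 adaptors and kinases, 0 passed with edgeR or DESeq2 between PF and SO at 12 weeks, and 2 were higher at an unadjusted p under 0.05, near the 6.14% of all genes. The kinase Btk was at 2.48 CPM in PF and 1.05 CPM in SO (log2 fold change 1.25, SE 0.39, DESeq2 adjusted p 0.0767). In SO over time 2 of 20 rose, Btk (1.67, SE 0.43, adjusted p 0.0201) and the Tlr4 adaptor Ticam2 (1.10, SE 0.33, adjusted p 0.0449), and 3 with DESeq2. Ticam2 also rose in LO (1.34, SE 0.33, adjusted p 0.028), where 1 of 20, Ticam1, named after its values were seen, fell with both tools. Of all genes, 159 of 16605 fell over time in LO with edgeR and 375 of 16347 with DESeq2. Btk failed without SO mouse 3 at 12 weeks (adjusted p 0.0533) or mouse 4 at 32 weeks (0.106). Ticam2 failed in SO without mouse 1, 2, 3 or 4 at 12 weeks or mouse 2, 3, 4 or 5 at 32 weeks (adjusted p 0.057 to 0.131). In LO it failed without mouse 1, 2 or 3 at 12 weeks or mouse 1, 3 or 5 at 32 weeks (adjusted p 0.0554 to 0.113) and with the 10 LO mice alone (0.0648). With mice numbered 2 to 5 alone, chosen after seeing the data, Ticam2 failed in SO (0.0758) and in LO (0.0854), and without the filter on low counts in SO (0.075). The median of the 20 genes was -0.02 at 12 weeks, with 8 of 20 higher, and 0.05 over time in SO, with 17 of 20 higher, 5 of them at an unadjusted p under 0.05, and 1 lower at that p. With the mouse number as a block, Btk (adjusted p 0.054) and Ticam2 (0.0567) failed in SO.

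Of 8 transcription factors, 0 passed with edgeR or DESeq2 between PF and SO at 12 weeks and 3 were higher at an unadjusted p under 0.05. Without PF mouse 5, Irf5 passed with edgeR (adjusted p 0.0317). Irf7, which drives interferon genes downstream of Tlr7 and Tlr9, was at 105, 110, 49.4, 74.9 and 17.1 CPM in PF and at 42.3, 25.6, 15.9, 12.7 and 12.6 CPM in SO (log2 fold change 1.72, SE 0.60, adjusted p 0.34). PF mouse 5 was inside the SO range, as for Tlr13. From 12 to 32 weeks in SO 2 of 8 rose, Irf7 (2.10, SE 0.63, adjusted p 0.0428) and the NF-kB subunit gene Rel (1.12, SE 0.31, adjusted p 0.0292), and 3 with DESeq2. Of 10 negative regulators, 0 of 9 tested passed with edgeR and 0 of 10 with DESeq2 at 12 weeks, with 1, Il1rl1, at an unadjusted p of 0.039. Over time in SO 1 rose with both tools, Tnfaip3, the ubiquitin-editing brake on NF-kB (0.59, SE 0.16, adjusted p 0.0287). Single SO mice decided these calls too. Irf7 failed without mouse 2, 3, 4 or 5 at 12 weeks or mouse 1, 2 or 4 at 32 weeks (adjusted p 0.0654 to 0.129). Rel failed without mouse 4 or 5 at 12 weeks or mouse 2 or 4 at 32 weeks (adjusted p 0.0571 to 0.135). Tnfaip3 failed without mouse 1, 2, 4 or 5 at 12 weeks or mouse 2, 4 or 5 at 32 weeks (adjusted p 0.0522 to 0.11). With the mouse number as a block, Rel (adjusted p 0.0515) and Tnfaip3 (0.0533) failed. Irf7 failed without the filter on low counts (0.056), and Tnfaip3 with the 10 SO mice alone (0.0571). Irf5, called over time in SO with DESeq2 only (0.0307), passed with edgeR without mouse 1 (0.035) or mouse 5 (0.0473) at 32 weeks and with the 10 SO mice alone (0.0411).

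Of 17 genes that TLR signals induce, 14 were tested with edgeR and 14 of these had higher means in PF than in SO at 12 weeks, 8 at an unadjusted p under 0.05 and 0 at an adjusted p under 0.05, with a median of 0.84. With DESeq2 2 of 15 passed. In LO, too, 14 of 14 had higher means than in SO at 12 weeks (5 at an unadjusted p under 0.05, 0 with edgeR or DESeq2, median 0.72), and in PF 10 of 14 had higher means than in LO (2 at an unadjusted p under 0.05, 0 with edgeR or DESeq2, median 0.13). The costimulatory receptor Cd40 was at 0.948, 1.56, 1.25, 1.07 and 0.604 CPM in PF and at 0.368, 0.369, 0.332, 0.491 and 0.407 CPM in SO (log2 fold change 1.47, SE 0.33, edgeR adjusted p 0.138, DESeq2 adjusted p 0.0141). The inflammatory cytokine Il1b was at 1.59, 5.51, 2.16, 2.8 and 3.57 CPM in PF and at 0.267, 0.492, 2.22, 0.766 and 0.9 CPM in SO (1.77, SE 0.54, DESeq2 adjusted p 0.0415). Cd86 (0.85, SE 0.24, DESeq2 adjusted p 0.0523) and the monocyte chemoattractant Ccl2 (1.11, SE 0.33, DESeq2 adjusted p 0.0754) did not pass. From 12 to 32 weeks in SO 8 of 14 rose (10 of 15 with DESeq2), among them Cd40 (1.95, SE 0.41, adjusted p 0.00734) and Cd86 (1.28, SE 0.28, adjusted p 0.00765). Il1b was not among the 8 (edgeR adjusted p 0.0507, DESeq2 adjusted p 0.0124), and passed with edgeR with the mouse number as a block (0.042) and without mouse 3 at 12 weeks (0.0276) or mouse 1 (0.0304) or 5 (0.045) at 32 weeks. Without SO mouse 4 at 32 weeks both failed, at an adjusted p of 0.0503 each, and without PF mouse 5 Cd40 passed at 12 weeks (0.0325). In LO over time 14 of 14 had higher means (median 0.60), of which 0 passed with edgeR, 3 at an unadjusted p under 0.05 and 1 with DESeq2. Of 9 endogenous ligands, 0 of 7 tested passed with edgeR and 0 of 8 with DESeq2 at 12 weeks, with 1, Vcan (0.41, SE 0.16), at an unadjusted p under 0.05. In SO over time, 0 of 8 ligands passed with edgeR and 0 of 9 with DESeq2, and 1 was higher at an unadjusted p under 0.05.

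Tlr11 and Tlr12, which bind profilin of protozoa, were higher in PF than in SO at 12 weeks and higher over time in SO. So were 9 and 10 of the 10 members, so the sign was not particular to the low tier. Both comparisons use the SO mice of 12 weeks. Between PF and SO at 12 weeks the log2 fold change was 1.22 (SE 0.62) for Tlr11 and 0.57 (SE 0.34) for Tlr12, and 0 of 2 passed at an unadjusted p under 0.05 or with DESeq2. Over time in SO 0 of 2 passed with edgeR or DESeq2, and both were higher at an unadjusted p under 0.05, as were 2091 of 16605 genes.

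The cell type lists place these values in the tissue. Between PF and SO at 12 weeks, 0 genes of any list passed with edgeR. With DESeq2 4 of 4 leukocyte, 6 of 10 macrophage, 1 of 5 dendritic cell and 1 of 5 T cell markers were higher, beside 1.23% of all genes. The T cell gene was Cd3d, at 0.768 CPM in PF and 0.107 CPM in SO. With DESeq2, 0 markers were higher of plasmacytoid dendritic cells (3 tested), B cells (5), neutrophils (4), mast cells (4), endothelium (4), luminal epithelium (8), basal epithelium (3), fibroblasts (5), smooth muscle (4) and adipocytes (4). With edgeR at an unadjusted p under 0.05, 4 of 4 B cell, 2 of 2 neutrophil, 3 of 4 endothelial and 1 of 5 fibroblast markers tested were higher among those, beside 6.14% of all genes. Ptprc, for instance, was at 20.5 ± 8.57 CPM in PF and 8.54 ± 1.14 CPM in SO (SD, n = 5 each; log2 fold change 1.28, SE 0.30, DESeq2 adjusted p 0.00423), and Adgre1 of macrophages had a log2 fold change of 0.99 (SE 0.21, DESeq2 adjusted p 0.00253). Without PF mouse 5, Ptprc, Adgre1 and Cd3d passed with edgeR as well (adjusted p 0.0262, 0.0272 and 0.0252).

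Over time in SO, 4 of 4 leukocyte, 5 of 10 macrophage, 2 of 5 dendritic cell, 4 of 5 B cell and 5 of 5 T cell markers rose with edgeR, as did 1 of 3 neutrophil and 1 of 3 basal markers. With DESeq2 these counts were 4, 6, 2, 5, 5, 1 and 1. Of all genes, 5.25% rose over time in SO with edgeR and 5.98% with DESeq2. Of plasmacytoid dendritic cell, mast cell, endothelial, luminal, fibroblast, smooth muscle and adipocyte markers 0 rose or fell with either tool, and at an unadjusted p under 0.05 1 endothelial and 1 fibroblast marker were higher and 1 luminal marker, Spink1, was lower, beside 2091 and 1180 of 16605 genes. B cell sums in SO at 32 weeks were 5.07, 20.4, 23.4, 84.3 and 4.23 CPM, so mouse 4 was far above the others and mice 1 and 5 were near the 4.82 CPM of the highest mouse at 12 weeks. T cell sums were 6.13, 6.21, 4.46, 26.8 and 7.82 CPM, with mouse 4 again the highest, and 1.72 to 2.22 CPM at 12 weeks. The luminal sum was 62400 ± 7640 CPM at 12 weeks and 47300 ± 6170 CPM at 32 weeks (SD, n = 5 each). Means were lower at 32 weeks in 4 of 4 smooth muscle and 3 of 4 adipocyte markers. The estimate for Ptprc, 1.85 (SE 0.37, adjusted p 0.00501), was about that of Tlr13, and Laptm5 had one of 1.17 (SE 0.26, adjusted p 0.00952). These values over time share the SO mice of 12 weeks with PF against SO at 12 weeks. Without SO mouse 4 at 32 weeks Laptm5 failed (adjusted p 0.0545). Coro1a failed without SO mouse 2, 3 or 4 at 12 weeks or mouse 4 at 32 weeks (adjusted p 0.0522 to 0.136) and with the mouse number as a block (0.0521). In LO over time 0 of 4 leukocyte markers passed with edgeR or DESeq2, 3 at an unadjusted p under 0.05, and 0 of 10 macrophage markers with edgeR, 9 at an unadjusted p under 0.05 and 7 with DESeq2, beside 1887 of 16605 genes that were higher at an unadjusted p under 0.05. Of basal epithelium 2 of 3 and of dendritic cells 1 of 5 markers rose in LO with both tools, and of fibroblasts 2 of 5 and of plasmacytoid dendritic cells 1 of 3 with DESeq2. Of all genes, 1.74% rose in LO with edgeR and 4.41% with DESeq2. The basal sum was 54.3 ± 12.5 CPM at 12 weeks and 95.9 ± 26.2 CPM at 32 weeks (SD, n = 5 each), and the luminal sum 54200 ± 7270 and 41500 ± 8950 CPM (SD, n = 5 each), with 0 of 8 luminal markers past either tool and 1 lower at an unadjusted p under 0.05. In PF over time 0 of the 14 leukocyte and macrophage markers passed with either tool or at an unadjusted p under 0.05. Between PF and SO at 32 weeks, 0 markers of any list passed with edgeR. Means were lower in PF in 4 of 4 leukocyte, 5 of 5 B cell and 5 of 5 T cell markers, with 0 at an unadjusted p under 0.05 or with DESeq2. Of mast cells 4 of 4 (1 with DESeq2) and of adipocytes 2 of 4 (0 with DESeq2) were higher in PF at an unadjusted p under 0.05, as were 1 of 5 dendritic cell and 1 of 8 luminal markers, and 1 of 4 smooth muscle markers was lower (0 with DESeq2 in these 3 lists). Of all 16218 genes 926 were higher and 822 lower at that p, and with DESeq2 62 of 15218 were higher. The part of these cells in the levels of the members was not tested.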

How the data were processed

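RNA from the VP of 30 mice was sequenced as paired ends on an Illumina HiSeq after a stranded mRNA preparation, 1 library per mouse. The authors aligned the reads to the mouse genome with TopHat2 and deposited raw counts of read pairs per Ensembl gene from HTSeq. Their versions, the annotation release and the strand setting of the counting are not given.

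All 39179 genes were read from the deposited counts, and lines for pairs not on a gene were left out. Libraries had 27590631 to 41301707 counts, and no mouse was left out. Groups were taken from the labels. edgeR 4.0.16 (R 4.3.3, limma 3.58.1) was used with TMM scaling, filterByExpr, a quasi-likelihood test and Benjamini-Hochberg adjustment over all genes tested, with a threshold of 0.05. Diets were compared within a time point (15873 genes at 12 weeks, 16218 at 32 weeks), and time and its interaction with diet in 1 fit of 6 groups (16605 genes). Intervals use the t distribution. Log2 CPM took a prior count of 2. Correlations used 100000 permutations (10000 for the shares of all genes) in Python 3.11.15 (numpy 2.4.6, scipy 1.17.1, pandas 2.3.3, matplotlib 3.10.9). The tests were also run on simulated data.

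Alternatives were DESeq2 1.42.0 with a Wald test, edgeR with relative log expression in place of TMM, no filter on low counts, the mouse number as a block, other sets of samples in the fit, mice 1 to 4 at 32 weeks, residuals from group means, a mean of at least 5 CPM, and leaving out each mouse. A B cell list, mice numbered 2 to 5 and the level relative to leukocyte markers were added after seeing the data. The members and the lists were chosen with earlier results of these data known. Lists held 87 pathway genes and the markers of 15 cell types. Genes named are the members, up to 3 genes of each list with the smallest p between PF and SO at 12 weeks, genes called in a diet comparison (up to 5 per list) and the 3 genes most like each member.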

Additional observations from a re-analysis of the deposited data

Results flagged for a closer look

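In 3 of 60 groups of a member, 1 mouse lay far from the other 4, and chance gives about 1 in 20. Tlr5 in PF at 12 weeks was at 25.6 CPM in mouse 1, with the nearest mouse at 16 CPM (gap over range 0.807). Tlr7 in PF at 32 weeks was at 5.7 CPM in mouse 2, with the nearest at 2.88 CPM (0.742). Tlr13 in LO at 12 weeks was at 0.921 CPM in mouse 2, with the nearest at 1.31 CPM (0.735). The cause was not tested. No change of a diet difference with time passed the threshold in edgeR for a member (0 of 10 for PF against SO; 5 at an unadjusted p under 0.05; 1 with DESeq2).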

How the results depend on the processing

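Of 113 log2 fold changes, 113 kept direction and side of the threshold with the other size factors, 109 without the filter (4 lost the threshold), 106 with the mouse number as a block (6 lost it, and Il1b over time in SO gained it) and 93 with DESeq2 (20 gained it). With 6 groups in 1 fit 53 of 53 did so, with mice 1 to 4 at 32 weeks 12 of 12, and with the 10 mice of a diet alone 39 of 45 (5 lost it, 1 gained it). With mice numbered 2 to 5, chosen after seeing the data, 109 of 113 did, 2 lost it (Ticam2 over time in SO and in LO) and 2 changed sign: Tlr4 in PF against SO at 12 weeks (-0.04) and Tlr13 over time in PF (0.16). The 6 lost with the block were all over time in SO: Tlr9, Ticam2, Btk, Rel, Tnfaip3 and Coro1a. Of 1280 values with 1 mouse left out, 1163 kept both, 74 lost the threshold, 24 gained it and 19 changed sign.

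DESeq2 called 2 members in PF against SO at 12 weeks, 4 over time in LO and 1 in the change of PF against SO. Over time in LO, 0 members passed without the filter, where more genes were tested, and 0 with the 10 LO mice alone, where fewer mice set the spread. In SO each of these settings left 5 of 6 members, without Tlr9. The others lost without the filter were Irf7 and Ticam2 in SO, and with the 10 mice alone Tnfaip3 in SO and Lbp and Ticam2 in LO, while Irf5 in SO was gained. With 1 mouse left out, the members called ranged from 0 (without PF mouse 1, for example) to 2 (without PF mouse 5) in PF against SO at 12 weeks. Over time in LO the range was 0 (without mouse 1 of 12 weeks, for example) to 6 (without mouse 4 of 32 weeks). Over time in SO it was 2 (without mouse 4 of 32 weeks) to 6 (without mouse 1 of 32 weeks). Of all genes, those called ranged from 0 to 131, from 47 to 1043 and from 226 to 1556, in the same order. Log2 fold changes ranged from -0.02 to 0.18 for Tlr4 and from -0.03 to 0.16 for Tlr3 in PF against SO at 12 weeks, from -0.12 to 0.07 for Tlr2, from -0.42 to 0.18 for Tlr7 and from -0.44 to 0.03 for Tlr8 in PF against SO at 32 weeks, from -0.24 to 0.11 for Tlr13 over time in PF, and from -0.05 to 0.14 for Tlr4 in the change of LO against SO. For these the cause was not tested. Depth was low for Tlr6, with 13 to 50 counts in a library, and Tlr8 had 12 in its lowest.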
